A study of Homo sapiens with 2 samples.

Results

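Solute carrier (SLC) genes were examined in A549 cells, a human lung adenocarcinoma line, treated with paclitaxel. Members were taken by symbol, as every gene whose name starts with SLC and a digit. In the table of differentially expressed transcripts, 10 of 993 listed transcripts and 8 of 812 listed genes met this rule. In the table of skipped exons, 613 of 35827 events met it, which lie on 539 distinct exons of 180 genes out of 9939 genes. That table lists far more events than the paper reports as changed by paclitaxel. An exon listed in it is therefore not, by that alone, one whose skipping changed. Both libraries came from the same line, one exposed to the solvent DMSO and one to 7.22 nM paclitaxel, a drug that stabilises microtubules, each for 72 h. The RNA, which the paper describes as poly-adenylated and freed of cytoplasmic rRNA, was sequenced in 1 library per condition. No spread between replicates therefore exists, no test was made and each difference below compares those libraries only. All coordinates are on hg38. The treated column of the expression table was identified by a suffix T in its name, which the labels do not spell out, and every direction given here rests on that reading.

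SLC proteins move solutes across cell and organelle membranes without hydrolysing ATP themselves, as exchangers, cotransporters or facilitators. They are grouped in families by sequence, and a family often shares a kind of substrate: amino acids, carboxylates, nucleosides, metal ions, vitamins or the metabolites that mitochondria exchange with the cytosol. Most span the membrane many times. SLC3A2 is different, since it is a single-pass heavy chain (4F2hc or CD98) that carries amino acid exchangers of the SLC7 family, such as SLC7A5, to the cell surface.

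SLC3A2 is described first, because some of the skipped exons that lie ahead of the first exon of its MANE Select transcript (the reference transcript chosen for a gene) also separate both SLC3A2 transcripts of the expression table. There are 3 exons ahead of it. An upper pair of 93 nt each separates the coding sequences of the transcripts. Another, further down, is listed with 96 nt or 93 nt and is present in neither transcript. All 3 are annotated as coding in GENCODE 44, none belongs to the MANE Select transcript, and their removal keeps the reading frame, with a loss of 31, 31 and 32 codons.

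Both listed SLC3A2 transcripts were lower with paclitaxel. Neither is the gene's MANE Select transcript, which is not in the list, so these values do not give the level of the whole gene. The transcript with the upper pair of 93-nt exons (ENST00000377890, coding length 1890 nt) had 26.7 FPKM in the DMSO library and 6.93 FPKM in the paclitaxel library, a difference of -1.81 on the log2(FPKM + 1) scale. FPKM are fragment counts scaled by transcript length and by library size, so these levels are per length. The transcript without those exons (ENST00000377889, 1704 nt) had 17.1 and 3.78 FPKM, a difference of -1.92. Their coding lengths differ by 186 nt or 62 codons, which is the length of both exons together. Their annotated first and last bases differ as well. The longer form was the more abundant in each library, at 1.56 times the shorter one with DMSO and 1.83 times with paclitaxel, and the sum of both went from 43.8 to 10.7 FPKM. Cufflinks divides reads that fit both transcripts by estimate, and the error of this division is not known here.

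**Figure D1:**
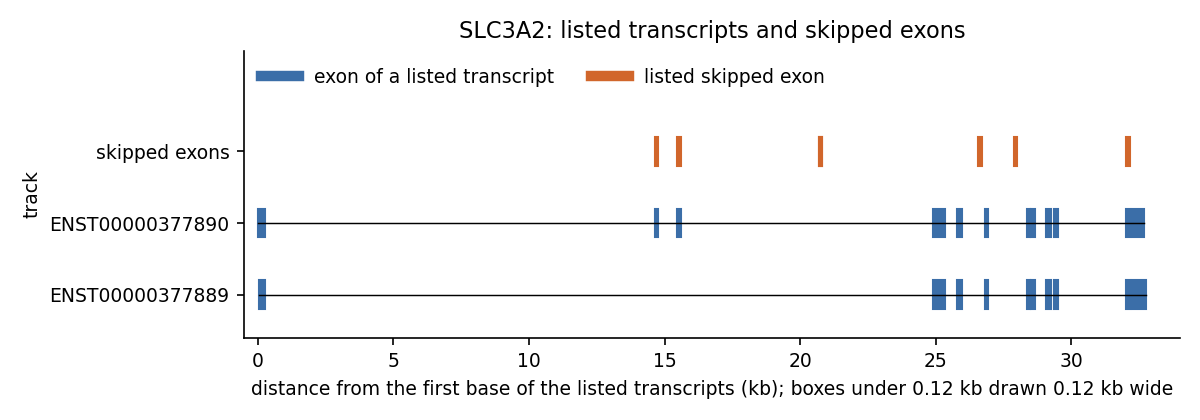
Exons of both listed SLC3A2 transcripts (blue) and the listed skipped exons of the gene (orange), by distance in kb from the first base of the listed transcripts. ENST00000377890 holds the pair of 93-nt exons nearest to its start, which ENST00000377889 lacks, and neither holds the next one, whose overlapping 93-nt and 96-nt forms are drawn over each other.

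Across all 10 SLC transcripts, 6 (of 5 genes) were higher and 4 (of 3 genes) lower in the paclitaxel library. On the log2(FPKM + 1) scale, 5 were higher by a fold of 2 or more and 4 lower, while 39.4% were higher and 52.7% lower by that rule over all listed transcripts. The table holds transcripts already chosen for their difference, so nearly all pass a fold of 2 and the count says nothing of SLC genes not listed. The median size of the difference was 1.75 for the SLC transcripts and 1.88 for all listed transcripts. The directions sat at different levels. Of the 6 higher transcripts, 5 were under 1 FPKM with DMSO (311 of 458, or 67.9%, over the whole table), and all 4 lower transcripts were at 1 FPKM or more in both libraries (319 of 535, or 59.6%).

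**Figure D2:**
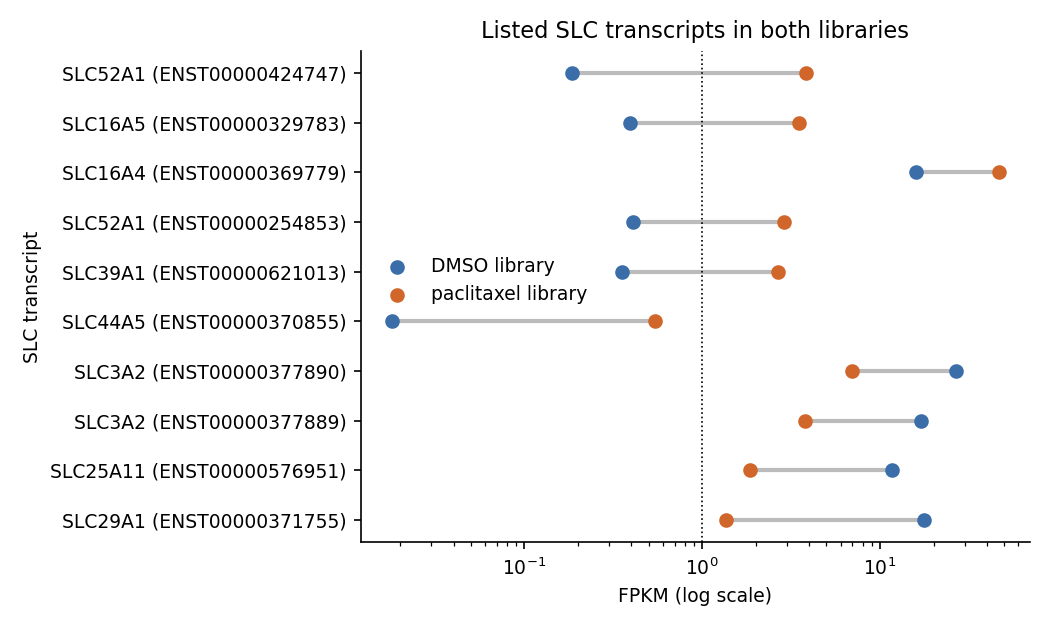
FPKM (log scale) of the 10 listed SLC transcripts in the DMSO library (blue) and the paclitaxel library (orange), 1 library each, ordered by their difference on the log2(FPKM + 1) scale. The 4 lower transcripts start between 11.6 and 26.7 FPKM with DMSO, and of the 6 higher ones, SLC16A4 alone starts above 1 FPKM (dotted line).

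The largest decrease among SLC genes was that of SLC29A1, the equilibrative nucleoside transporter ENT1, which carries nucleosides and many nucleoside drugs across the plasma membrane. Its MANE Select transcript (ENST00000371755, chr6:44223595-44234142) went from 17.6 FPKM with DMSO to 1.35 FPKM with paclitaxel, a difference of -2.99 on the log2(FPKM + 1) scale and a 13.0-fold lower FPKM. It ranked 95th of the 535 decreases in the table. SLC25A11, the mitochondrial carrier that exchanges oxoglutarate for malate in the malate-aspartate shuttle, was lower as well. Its transcript ENST00000576951 (chr17:4937763-4939913) had 11.6 and 1.86 FPKM, a difference of -2.14. This is not the gene's MANE Select transcript, and its other transcripts are not in the list.

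Members of the SLC16 family, named for its monocarboxylate carriers, were listed as higher. SLC16A4 (MCT5), a member of the monocarboxylate transporter family with a poorly defined substrate, had the highest level of all listed SLC transcripts in the paclitaxel library. Its MANE Select transcript (ENST00000369779, chr1:110362857-110391026) went from 16.0 to 46.9 FPKM, a difference of 1.50, and ranked 69th of 993 by its FPKM in the paclitaxel library. Exons of an antisense RNA gene, LAMTOR5-AS1, overlap 133 of its exon bases, and no source read here says whether the counting used strand. SLC16A5 (MCT6) had 0.392 FPKM with DMSO and 3.53 FPKM with paclitaxel for ENST00000329783, a difference of 1.70.

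The other higher transcripts belonged to carriers of a vitamin, of zinc and of choline-like substrates, and each was under 1 FPKM with DMSO. SLC52A1, a riboflavin transporter, had both of its listed transcripts higher. They share a coding length of 1344 nt, and had 0.410 and 2.89 FPKM (ENST00000254853, difference 1.47) and 0.186 and 3.85 FPKM (ENST00000424747, difference 2.03). SLC39A1 (ZIP1), which takes up zinc, had 0.355 and 2.68 FPKM for ENST00000621013, a difference of 1.44. Another gene annotated as protein-coding on the same strand shares 1954 of the 2322 bases of that transcript, so its reads may belong to either gene. SLC44A5, of the choline transporter-like family, stayed below 1 FPKM in both libraries (0.0179 and 0.544 FPKM), and its difference of 0.60 was the one under a fold of 2 among the SLC transcripts. This rests on the pseudocount, since its FPKM ratio of 30.4 was the largest of the 10 and its difference with a pseudocount of 0.1 was 2.45. The FPKM values give no read counts, so no counting error can be given for these low levels. The listed transcripts of SLC39A1 and SLC44A5 are not the MANE Select transcripts of their genes, and no other transcript of either gene is in the list.

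**Figure D3:**
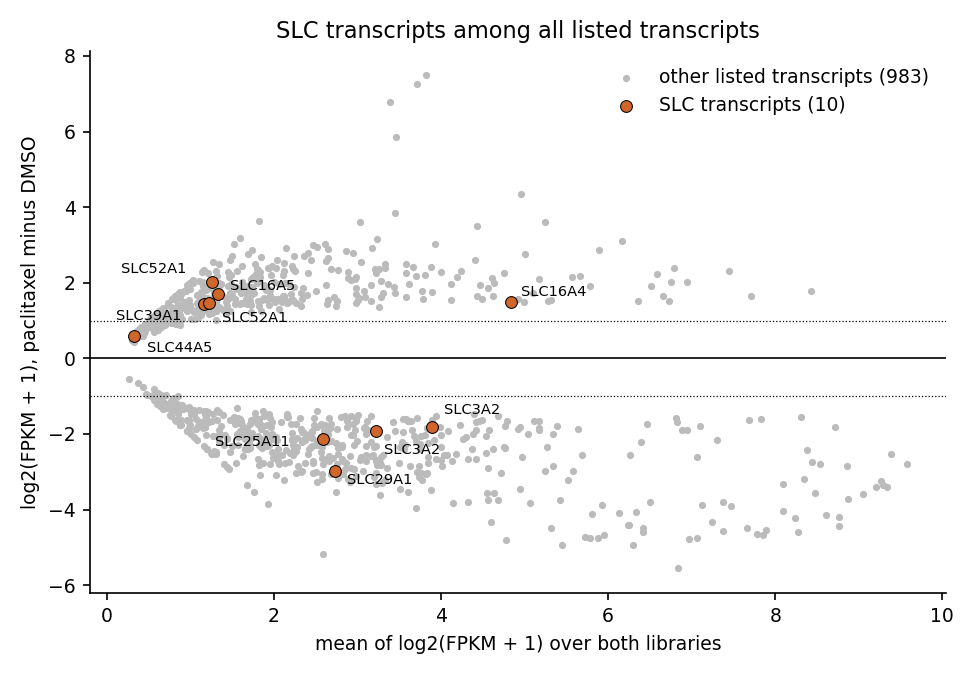
Difference in log2(FPKM + 1), paclitaxel minus DMSO, against the mean of log2(FPKM + 1) over both libraries for the 993 listed transcripts, with the 10 SLC transcripts in orange and dotted lines at a fold of 2. The SLC transcripts lie within the range of the others, and SLC16A4 is the one higher SLC transcript apart from the low levels at the left.

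The expression table listed 806 of 20046 protein-coding genes (4.02%) and 8 of the 371 SLC carrier genes (2.16%). Of 46 ABC family genes, most of which encode pumps driven by ATP, 2 were present, and both were higher. These were ABCA1, a cholesterol exporter, with 0.817 and 9.38 FPKM, and ABCA12, a lipid transporter, with 0.198 and 2.90 FPKM. The water channel AQP1 had 0.0553 and 0.650 FPKM and was 1 of 14 aquaporins. ATP2C1, the calcium and manganese pump of the Golgi, had 1.85 and 0.144 FPKM and was 1 of 17 P-type ATPases. No SLCO gene (of 12), V-ATPase subunit (of 24) or gene of the list of mitochondrial pyruvate carrier subunits and monocarboxylate transporter partners (of 4) was listed. Of 7 epithelial markers KRT19 was listed, at 22.9 and 107 FPKM, and none of 6 lung epithelium markers was. Of 14 erythroid markers 3 were listed, the globins HBA1, HBA2 and HBB, whose summed level went from 0.118 to 458 FPKM, while SLC4A1 and SLC25A37 of the same list were not in the expression table. Of 12 leukocyte markers S100A9 was listed, at 0.123 and 5.85 FPKM, and none of 5 fibroblast or 3 endothelial markers was. Their part in the SLC values was not tested.

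Of the 371 protein-coding SLC carrier genes of GENCODE 44, 172 (46.4%) were in the table of skipped exons, against 9391 of all 20046 protein-coding genes (46.8%). The 180 SLC symbols of the table also held 2 that GENCODE 44 lists as pseudogenes (SLC26A10 and SLC35E2) and 6 that name no carrier (SLC4A1AP, SLC22A18AS, SLC7A6OS, SLC9A3R1, SLC9A3R2 and SLC7A11-AS1), the latter with 11 exons. Its columns of reads and inclusion per library could not be tied to DMSO or paclitaxel, so the exons are described by position and sequence, with no direction of change. The share of carrier genes in the table, with families grouped by their main kind of substrate, ranged from 0 of 5 for the small group of ammonium, urea and other carriers to 21 of 32 for metal carriers (65.6%). It was 31 of 49 for mitochondrial carriers (63.3%), 22 of 37 for nucleosides and nucleotide sugars (59.5%), 10 of 18 for lipids, choline and phosphoesters (55.6%) and 11 of 20 for vitamins, peptides and haem (55%). It was 25 of 56 for inorganic ions (44.6%) and 22 of 59 for amino acids (37.3%). Carboxylates and organic ions had 17 of 50 (34%). The sugar carrier families, which also hold carriers of iodide and vitamins, had 10 of 31 (32.3%). The vesicle carrier families had 3 of 14 (21.4%). These differences were not tested. Expression of the SLC genes outside the expression table was not analysed here, so coverage and expression cannot be told apart.

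**Figure D4:**
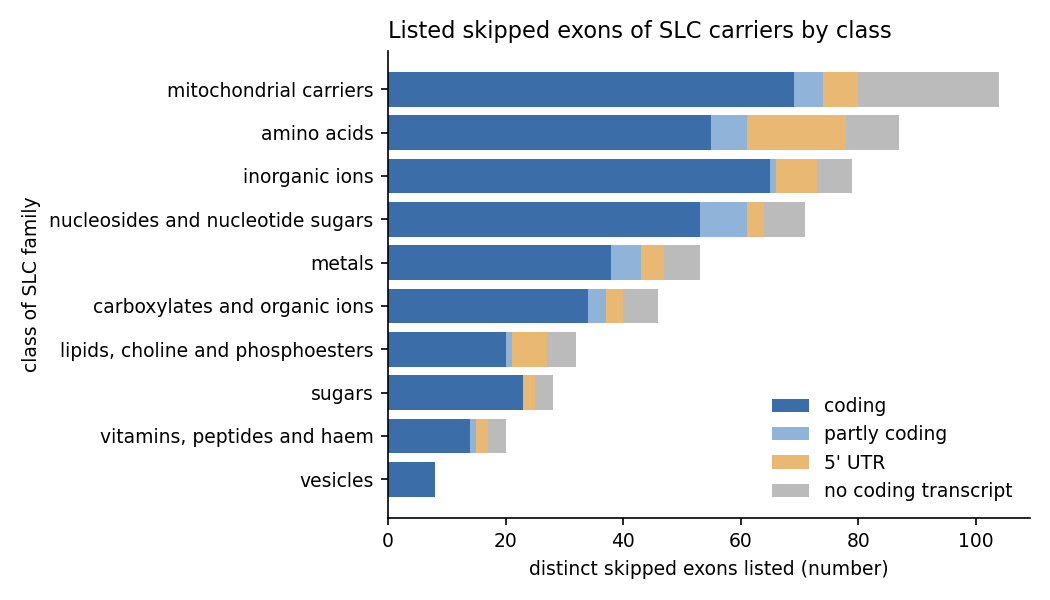
Number of distinct skipped exons of SLC carriers listed for each class of family. They are split by their annotation in GENCODE 44 as coding, partly coding, 5′ UTR or exon of no protein-coding transcript. Mitochondrial carriers hold the most exons (104), followed by carriers of amino acids (87) and of inorganic ions (79).

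SLC exons were much like the table as a whole in type. Their median length was 129 nt (121 nt over all exons), from 24 to 2271 nt, and 71.6% were coding (70.2% over all). The junction that skips the exon was annotated for 50.8% (51.7% over all), and the ends were AG before and GT after the exon for 97.8% (98.3% over all). The GC content was somewhat above that of the table, with a median of 52.7% against 48.8%. Of the 386 coding SLC exons 154 (39.9%) had a length that is a multiple of 3, against 44.9% over all coding exons. Among coding exons with an annotated skipping junction the shares were 67 of 159 (42.1%) and 50.1%. Exons of one gene are not independent, and no test was made of these shares.

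What skipping would leave of the protein was read from the MANE Select transcript or, for exons that are not wholly coding in it, from the transcript with the longest coding sequence that holds the exon as coding. Of 385 coding exons, 175 (45.5%) would leave a stop codon more than 50 nt before the last junction. Such a stop is the usual mark of a transcript open to nonsense-mediated decay. Coding sequences were read from their first annotated base, and stops already present were not set apart. An exon of SLC25A23 is counted here although its transcript reads to a stop after 57 codons with or without it. A further 145 (37.7%) would leave the frame open, 58 (15.1%) would give a stop elsewhere and 7 (1.82%) no stop. The same shares were not computed over all coding exons, so whether they are particular to SLC genes is not known.

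Exons of the listed carriers covered 7 of the 8 genes, with 24 distinct exons and 36 events, and SLC44A5 had none. Of the 24 exons, 17 were present in a listed transcript and 6 were skipped by one, with the second 93-nt exon of SLC3A2 in both counts. SLC16A4 had exons 2 to 6 of its 9 exons listed. Exons 4, 5 and 6 would remove 48, 54 and 168 codons of 487 in frame, whereas loss of the 133-nt exon 3 would bring an early stop after 57 codons. The 810-nt exon 5 of SLC16A5 holds 270 of its 505 codons and also keeps the frame. In SLC25A11, exons 2 and 3 would remove 51 and 69 of 314 codons in frame. The exons of SLC52A1 (exon 4, 124 nt), SLC39A1 (exon 3, 131 nt) and SLC29A1 (exon 12, 200 nt) would shift the frame. Examples of both kinds are given 5′ to 3′ on the minus strand, with capitals for the exon and lower case for the adjoining 10 intron bases.
SLC16A4 exon 4, in frame, chr1:110381652-110381795: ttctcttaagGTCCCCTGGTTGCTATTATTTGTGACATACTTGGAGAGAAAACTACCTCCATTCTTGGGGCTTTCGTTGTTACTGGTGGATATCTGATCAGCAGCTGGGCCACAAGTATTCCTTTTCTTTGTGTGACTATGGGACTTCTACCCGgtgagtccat
SLC25A11 exon 2, in frame, chr17:4939060-4939212: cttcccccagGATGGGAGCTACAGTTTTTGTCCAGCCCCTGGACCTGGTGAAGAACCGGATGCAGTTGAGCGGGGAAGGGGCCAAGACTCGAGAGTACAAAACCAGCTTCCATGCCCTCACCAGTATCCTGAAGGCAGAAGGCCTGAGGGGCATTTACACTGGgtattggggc
SLC52A1 exon 4, frame shift, chr17:5033261-5033384: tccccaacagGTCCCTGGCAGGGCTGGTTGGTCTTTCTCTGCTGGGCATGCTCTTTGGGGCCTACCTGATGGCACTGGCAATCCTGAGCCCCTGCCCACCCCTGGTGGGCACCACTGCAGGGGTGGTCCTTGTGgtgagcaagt

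The genes with the most skipped exons were not those with listed transcripts, SLC3A2 apart. SLC4A7, a sodium bicarbonate cotransporter, had 11 exons, all coding and spread from exon 4 to exon 25 of 26. Of these, 5 would be lost in frame, among them the 372-nt exon 7 with 124 of 1259 codons, and the other 6 would each bring an early stop. SLC38A9, the lysosomal amino acid sensor, had 9 exons, with 4 exons in the 5′ UTR and 4 coding exons of 90 to 195 nt that keep the frame, while loss of its 133-nt exon 4 would bring an early stop.

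SLC25A17, a peroxisomal carrier, and SLC37A3, a sugar-phosphate family member of the endoplasmic reticulum and lysosome, had 8 exons each. None of the 8 exons of SLC25A17 was a multiple of 3, whereas 6 of the 7 exons of SLC3A2 were. Another 5 genes shared the count of 7 with SLC3A2: the carnitine transporter SLC22A5, the mitochondrial glutathione carrier SLC25A39, the exporter SLC47A1 (MATE1), the taurine transporter SLC6A6 and SLC7A7, a light chain that pairs with the SLC3A2 protein. At the other end, 46 of the 180 genes (25.6%) had 1 exon each, against 2911 of 9939 (29.3%) over all genes with a skipped exon. The erythroid marker SLC25A37, a mitochondrial iron importer, had 2 exons, neither of them in a transcript annotated as protein-coding.

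Exons of 27 nt or less, the length usually called a microexon, were rare among SLC genes, with 2 of 539 (0.371%, against 0.768% over the table). One lies in SLC11A2, the divalent metal transporter DMT1, in a transcript not annotated as protein-coding. The other lies in SLC38A10 and is coding in a short transcript. Capitals mark the exon, on the minus strand.
SLC11A2, 25 nt, chr12:51005653-51005677: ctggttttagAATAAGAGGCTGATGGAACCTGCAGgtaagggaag
SLC38A10, 24 nt, chr17:81250070-81250093: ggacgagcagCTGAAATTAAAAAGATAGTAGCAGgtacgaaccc

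A pair of SLC exons differed at the acceptor by 3 nt in 7 genes (191 such pairs over the table). Here the splice site AG occurs again after 1 base, and use of the second one removes 3 bases from the exon. The windows of 6 genes are shown 5′ to 3′ on the strand of the gene with both AGs in capitals, because the exon pair rests on these letters. In SLC29A1 the shorter exon, of 80 nt, is the one in the listed transcript, and the longer has 83 nt.
SLC29A1 chr6:44227243-44227268, plus strand: actgttcctgcccccAGcAGgcccct
SLC29A4 chr7:5287789-5287814, plus strand: ctctgctttctccaaAGcAGaggctg
SLC35G1 chr10:93898554-93898579, plus strand: aatttaatctttttcAGaAGccaaga
SLC26A11 chr17:80220899-80220924, plus strand: ctctgatgtcctcccAGaAGcaacta
SLC25A6 chrX:1390285-1390310, minus strand: aatttttttaaacttAGcAGggcggg
SLC8B1 chr12:113334830-113334855, minus strand: ccgcccctgtcccttAGcAGgtcggc

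The pairs of SLC35G1 (181 and 178 nt) and SLC3A2 (96 and 93 nt) are coding, so the second acceptor would shorten the coding sequence by 1 codon. Those of SLC29A1 and SLC29A4, both equilibrative transporters of the same family, are partly coding. Those of SLC26A11 and SLC8B1 lie in the 5′ UTR, and that of SLC25A6, a mitochondrial ADP/ATP carrier, in transcripts not annotated as protein-coding.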

How the data were processed

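The authors describe RNA purified as poly-adenylated with a total RNA kit and freed of cytoplasmic rRNA with Ribo-Zero. They mapped paired reads to hg38 with MapSplice. The submitters' processing notes also name CASAVA 1.8.2, TopHat and Cufflinks. The deposited FPKM values are per transcript, from Cufflinks, in a table of transcripts the authors had called changed, with its own fold changes and p-values, which were not used. Its FPKM columns were tied to the samples by their names, with the suffix T taken to mean treated. The depth of the libraries is not given by FPKM, so no interval for counting error could be had. The skipped exon table holds 6 columns of reads and inclusion per library that name no condition and were not used, and neither were its columns of differences, p-values and FDR. Its events were taken without selection for a change.

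Differences are log2(FPKM + 1), paclitaxel minus DMSO, with a pseudocount of 1 and no filter. Exon annotation came from GENCODE 44, and 948 of the 993 transcripts were found in it. Exons were counted once by gene, strand, start and end. The named genes are every SLC gene of the expression table, the 6 SLC genes with the most skipped exons (11 with ties, of which 1 is not reported here), exons of 27 nt or less, and SLC genes among blood markers. Tandem acceptors were chosen after the data were seen. Members and lists were chosen with earlier results of these data known. The alternatives were another pseudocount, filters on FPKM, scaling by the median, a fold of 4, sums per gene and other ways of counting exons. Scripts ran under Python 3.11.15 with pandas 2.3.3 and numpy 2.4.6, and were tested on simulated data.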

Additional observations from a re-analysis of the deposited data

How the results depend on the processing

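Each SLC transcript with a value kept its direction under the alternatives tried. With a floor of 1 FPKM in each library, 1 transcript remained among the 6 higher ones, 1 among the 5 that were higher by a fold of 2, and 1 among the 5 higher genes, by construction, since the others were under 1 FPKM with DMSO. A fold of 4 left 1 higher and 2 lower transcripts. The 921 listed transcripts above 0 in both libraries had medians of 4.48 FPKM with DMSO and 2.81 FPKM with paclitaxel. Division by these medians added up to 0.67 to a difference on the log2 scale. It gave 5 higher and 4 lower transcripts by a fold of 2. The medians come from transcripts already called changed, so this is no scaling of whole libraries. A pseudocount of 0.1 gave 6 higher and 4 lower. That pseudocount moved the 5 transcripts under 1 FPKM with DMSO most, as from 2.03 to 3.79 for SLC52A1 ENST00000424747 and from 0.60 to 2.45 for SLC44A5. The count of exons was 613 as events, 494 with overlapping exons merged and 528 without the symbols that name no carrier, a choice made after seeing the data. A minimum of 20 reads per event was not run, since the read columns were left unused. Events therefore count alike whatever their reads, although a minimum over both libraries together would need no condition. Leaving out a replicate was not possible with 1 library per condition. No paired analysis was possible because the groups share fewer than 2 replicate numbers. Depth is unknown, which limits the transcripts under 1 FPKM most.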
